A study of Rattus norvegicus with 6 samples.

Results

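The aryl hydrocarbon receptor system was followed through 8 genes in rat bone marrow stromal cells exposed to cigarette smoke extract (CSE). The genes were taken by symbol as the receptor and its known targets, a choice made with earlier results of these data known, and all 8 were found among the 37209 symbols of the count table. They are the receptor gene Ahr, its partner gene Arnt, the repressor gene Ahrr, the ADP-ribosyltransferase gene Tiparp, the P450 genes Cyp1a1, Cyp1a2 and Cyp1b1, and the aldehyde dehydrogenase gene Aldh3a1. RNA was sequenced from primary mesenchymal stem cells of the femoral marrow, labelled as wild type. All cultures were grown in αMEM with fetal bovine serum and antibiotics before exposure. The CSE group received 3% CSE for 6 h, and the control group was kept in serum-free medium for 6 h. The sources used here do not give the diluent of the extract, nor the strain, age or number of rats. Each group had 3 libraries, and nothing in the labels says that they came from separate cultures or animals, so a p-value speaks only to variation among these libraries, and that variation may be technical.

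AHR is a transcription factor of the bHLH-PAS family that waits in the cytosol in a complex with HSP90 and the cochaperone p23. Planar aromatic compounds, among them the polycyclic aromatic hydrocarbons of tobacco smoke, bind it, and it then enters the nucleus, pairs with ARNT and binds DNA elements with the core GCGTG. Its best known targets encode P450 enzymes that oxidise such compounds, and it also switches on genes that restrain it. AHRR competes with it for ARNT, and TIPARP modifies it with ADP-ribose and lowers its activity.

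Library totals ranged from 15958621 to 22589327 counts. Levels are given as counts per 1000000 counts (CPM) after TMM scaling of the library sizes, which corrects for differences in composition, and differences as log2 fold changes, CSE over control, with their SE. Adjusted p-values are from edgeR's quasi-likelihood test with Benjamini-Hochberg adjustment over the 13390 genes that passed a filter on low counts, with a threshold of 0.05. Of 11 stromal markers all were tested, and 4 were higher with CSE, 4 lower and 3 not called, or 2 higher and 4 lower under library totals alone. Such calls compare the groups and cannot check the stromal label, for which only levels speak. The collagen gene Col1a1 was abundant in both groups, at 26096 CPM with CSE. Lepr was low, at 1.02 CPM in the control and 1.22 with CSE, as was Vcam1, at 0.324 and 1.875 CPM. Cxcl12 went from 377.8 CPM in the control to 84.0 CPM with CSE. In the control, Itgb1 stood at 2742 CPM, Thy1 at 1192, Col1a2 at 501.8, Cd44 at 411.2 and Pdgfrb at 377.9. Eng stood at 27.1 CPM there and Nt5e at 7.4. Among 9 markers of macrophages and other blood cells, 1 was higher, 3 were lower and 3 not called, or 0 higher and 6 lower under library totals alone, and their summed level ran from 316 to 337 CPM with CSE and from 384.5 to 392.1 CPM in the control. In that list the T-cell marker Cd3e was listed at 0, whereas the pan-leukocyte marker Ptprc had 61.9 ± 2.30 CPM in the control and 49.3 ± 0.819 with CSE (SD, n = 3). The macrophage marker Cd68 had 47.0 ± 0.791 CPM in the control and 51.8 ± 3.08 with CSE (SD, n = 3). It was called higher, though not under library totals alone. Adgre1 was not called, at 52.44 ± 1.86 CPM in the control and 52.45 ± 3.11 with CSE (SD, n = 3). Cd14 and Csf1r were called lower. Cd14 went from 45.25 ± 3.97 CPM in the control to 16.5 ± 1.14 with CSE (SD, n = 3). Csf1r went from 139.1 ± 0.206 to 117 ± 6.28 CPM (SD, n = 3). The part of macrophages in the results below was not tested, and in bulk RNA fewer cells of a type and less RNA per cell cannot be told apart.

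To show the DNA next to which these genes start, the 250 bases before the RefSeq transcription start were taken for 3 genes that rose, Ahrr, Cyp1b1 and Tiparp, and for the 2 that were not called, Ahr and Arnt. RefSeq sequences of the rat assembly GRCr8 matched 6 of the 8 genes, the sixth being Cyp1a2. The stretches lie at chr1:30821969-30822218 (Ahrr, plus strand), chr6:21094315-21094564 (Cyp1b1, plus strand), chr2:152063519-152063768 (Tiparp, plus strand), chr6:57998902-57999151 (Ahr, minus strand) and chr2:185686453-185686702 (Arnt, plus strand). The RefSeq gene Cyp1b1 begins before its stretch, so that stretch precedes only the start used in the promoter table. Each is written 5′ to 3′, with the core GCGTG, or its reverse complement CACGC, in capitals.
Ahrr: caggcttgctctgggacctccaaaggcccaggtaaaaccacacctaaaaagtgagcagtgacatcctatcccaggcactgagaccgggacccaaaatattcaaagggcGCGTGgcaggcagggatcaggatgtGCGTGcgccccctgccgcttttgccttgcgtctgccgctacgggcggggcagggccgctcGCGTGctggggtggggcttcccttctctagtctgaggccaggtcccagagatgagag
Cyp1b1: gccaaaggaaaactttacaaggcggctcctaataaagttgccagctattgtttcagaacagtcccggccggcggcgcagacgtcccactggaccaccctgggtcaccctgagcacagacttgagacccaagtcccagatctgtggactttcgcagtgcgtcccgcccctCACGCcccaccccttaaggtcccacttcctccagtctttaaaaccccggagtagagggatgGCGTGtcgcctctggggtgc
Tiparp: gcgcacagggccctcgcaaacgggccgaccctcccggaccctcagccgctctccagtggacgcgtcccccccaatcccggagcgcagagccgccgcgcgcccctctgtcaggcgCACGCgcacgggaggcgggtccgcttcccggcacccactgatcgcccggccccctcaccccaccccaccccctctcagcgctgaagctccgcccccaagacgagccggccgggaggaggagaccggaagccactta
Ahr: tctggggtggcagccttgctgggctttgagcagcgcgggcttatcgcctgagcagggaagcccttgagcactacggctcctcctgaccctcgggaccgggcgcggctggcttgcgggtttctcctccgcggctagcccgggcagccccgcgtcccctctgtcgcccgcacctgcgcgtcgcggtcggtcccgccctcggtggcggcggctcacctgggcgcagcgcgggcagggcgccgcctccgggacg
Arnt: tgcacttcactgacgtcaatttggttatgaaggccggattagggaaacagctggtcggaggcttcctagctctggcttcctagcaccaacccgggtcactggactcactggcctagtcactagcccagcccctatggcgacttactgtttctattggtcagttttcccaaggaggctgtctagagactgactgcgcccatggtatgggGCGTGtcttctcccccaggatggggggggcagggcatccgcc
The core occurred 3 times before Ahrr, 2 times before Cyp1b1, 1 time before Tiparp and 1 time before Arnt, and it was not in the stretches before Ahr and Cyp1a2. Among 33465 rat promoter stretches of the same length, 25.9% held the core at least once on either strand, 8.12% at least 2 times and 2.58% at least 3 times. The longer form TNGCGTG, which contains the core, was found 1 time each before Ahrr and Cyp1b1, at 59 and 22 bases before the start, and in 4.09% of all stretches. The stretches of these 5 genes were rich in G and C, from 57.6% for Arnt to 75.2% for Ahr, against a median of 51.2% over all stretches. A match of letters describes the sequence and does not show that the receptor binds there. Elements farther upstream lie outside these stretches.

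Exposure to CSE for 6 h was accompanied by higher RNA of the inducible genes Cyp1a1, Aldh3a1, Tiparp, Ahrr and Cyp1b1, by amounts from 1.66-fold for Cyp1b1 to 123-fold for Aldh3a1 and more for Cyp1a1, while the receptor gene Ahr and its partner Arnt stood at nearly the same level in both groups. Of the 8 genes, 7 passed the filter on low counts, 5 were called higher, none was called lower and 2 were not called. Among all tested genes 73.9% were called, 36.3% higher and 37.5% lower, so a call by itself sets no gene apart here. The 5 higher genes were also those in which every CSE library lay above every control library, which was the case in 37.2% of all tested genes, and in 75.8% the groups did not overlap in either direction. Cyp1a1 passed the filter through the CSE libraries alone, and Cyp1a2 did not pass it.

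**Figure D1:**
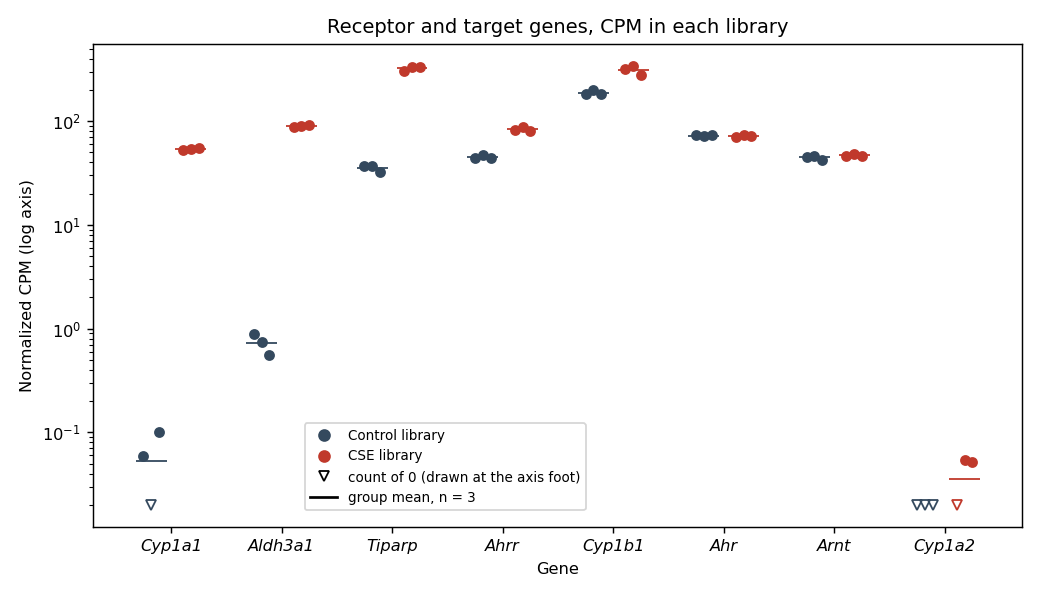
Normalized CPM on a log axis for the 8 genes, with 1 point per library, a bar at the mean of 3 libraries, and open triangles at the foot of the axis for libraries with a count of 0. The CSE points lie above all control points for Cyp1a1, Aldh3a1, Tiparp, Ahrr and Cyp1b1, whereas the points of Ahr and Arnt overlap.

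Cyp1a1 encodes the P450 enzyme that hydroxylates polycyclic aromatic hydrocarbons and is the classical readout of the receptor. Its counts were 1116, 990 and 1058 in the CSE libraries and 1, 0 and 2 in the control libraries, or 52.9, 54.0 and 54.7 CPM against 0.0589, 0 and 0.101 CPM. The control libraries were thus at the edge of detection, where 3 counts correspond to between 0.151 and 0.177 CPM, and the CSE libraries lay close together. The ratio of the summed counts, scaled for library size, was 1001, with a 95% exact counting interval of 342 to 4856 that covers counting error only. The fitted log2 fold change of 9.80 ± 0.19 (edgeR adjusted p = 2.1e-17) ranked 1 among the 13390 genes from the top. Its size depends on the prior count because the controls are so low. That SE understates the uncertainty, since DESeq2 gave 9.99 ± 0.84 and limma-voom 9.66 ± 0.49. The gene passed the filter through the CSE libraries alone, so its rank and p-value partly reflect that selection. Leaving out single libraries moved the edgeR log2 fold change between 9.25 and 10.6.

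Cyp1a2, the neighbouring gene of the same subfamily and best known from liver, was almost without reads. It had 0, 1 and 1 counts with CSE and 0 in each control library. The 3 counts that a count of 0 allows would be 0.051 CPM over the CSE libraries together and 0.0538 CPM over the control libraries, so both groups were at or under that limit and no fold change is given. Reads that fit both Cyp1a1 and Cyp1a2 could have been split or dropped, since the sources used here do not give the counting rule. The hepatocyte markers Alb and Ttr had 3 counts and 0 counts in the 6 libraries together, whereas the third, Apoa1, had 105 counts with CSE and 21 in the control (log2 fold change 2.22 ± 0.37, edgeR adjusted p = 3.7e-05).

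Cyp1b1, a P450 of the same family that is known from mesenchymal and steroid-responsive tissues, differed in pattern from Cyp1a1. It had 316, 339.7 and 277 CPM with CSE and 181, 197 and 184 CPM in the control, so it was already well measured without the extract. The CSE libraries were all above the controls, with CSE library 3 the lowest of them. The difference was 1.66-fold (log2 fold change 0.73 ± 0.06, edgeR adjusted p = 1.2e-08). Its CSE libraries spread by a coefficient of variation of 10.2%, against 1.28% from counting error alone, whereas Cyp1a1 spread by 1.62% with CSE, against 3.08% from counting error. The difference in fold between both P450 genes was not tested.

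Aldh3a1 encodes an aldehyde dehydrogenase that oxidises aromatic and medium-chain aldehydes and belongs to the receptor's gene battery. Its levels were 88.1, 88.7 and 90.8 CPM with CSE and 0.883, 0.738 and 0.555 CPM in the control, from 15, 14 and 11 control counts. The groups were separated by a wide gap, and the CSE libraries differed by less than counting error, with a coefficient of variation of 1.57% against 2.39%. The fold change was 123 (log2 fold change 6.95 ± 0.11, edgeR adjusted p = 2.4e-18), which ranked 28 from the top. With 40 control counts in all, that SE understates the uncertainty. DESeq2 gave 6.98 ± 0.24 and limma-voom 6.93 ± 0.26.

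Both genes known to restrain the receptor were higher with CSE, Tiparp much more than Ahrr. Tiparp had 303.9, 328 and 333 CPM with CSE against 36.86, 36.85 and 32.6 CPM in the control. It rose 9.09-fold (log2 fold change 3.18 ± 0.06, edgeR adjusted p = 2.4e-17) and ranked 192 from the top. Ahrr had 81.1, 87.7 and 80.2 CPM with CSE against 44.5, 47.3 and 43.95 CPM in the control. It rose 1.83-fold (log2 fold change 0.88 ± 0.06, edgeR adjusted p = 3.8e-10) and stood at rank 1743, near Cyp1b1 at rank 2189. The 95% intervals of Ahrr and Cyp1b1, 0.75 to 1.00 and 0.60 to 0.86 on the log2 scale, overlapped. In GRCr8, which is not the build used for the counts, the long non-coding RNA gene LOC102554278 overlaps the start of Tiparp. It had 25, 20 and 26 counts with CSE against 2, 3 and 6 in the control (log2 fold change 2.58 ± 0.44, edgeR adjusted p = 4.4e-05), and without a stated strand setting its reads and those of Tiparp cannot be told apart.

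The receptor gene itself, Ahr, stood at nearly the same level in both groups. It had 70.9, 74.2 and 71.7 CPM with CSE and 73.0, 71.1 and 73.3 CPM in the control. The 2 groups interleaved, and the difference of −0.0044 ± 0.05 on the log2 scale did not pass (edgeR adjusted p = 0.943, 95% interval −0.11 to 0.10). Arnt, the partner that AHR shares with the hypoxia factors, had 45.9, 48.15 and 45.8 CPM with CSE and 45.5, 46.5 and 42.2 CPM in the control. Its groups overlapped as well, with a log2 fold change of 0.06 ± 0.06 that did not pass (edgeR adjusted p = 0.388, 95% interval −0.07 to 0.19). With TMM scaling the intervals leave room for changes of up to about these bounds in either gene. They do not cover the choice of scaling. The call of Ahr depended on the scaling. It was called lower when libraries were scaled by their totals alone (−0.19, edgeR adjusted p = 0.0030) or by upper quartiles (−0.14, edgeR adjusted p = 0.0217). Over all alternatives its adjusted p lay between 0.0030 and 0.968. Those scalings set the median of all tested genes at −0.21 and −0.15, against −0.02 with TMM scaling. Arnt was at −0.13 and −0.08 under them, without being called.

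**Figure D2:**
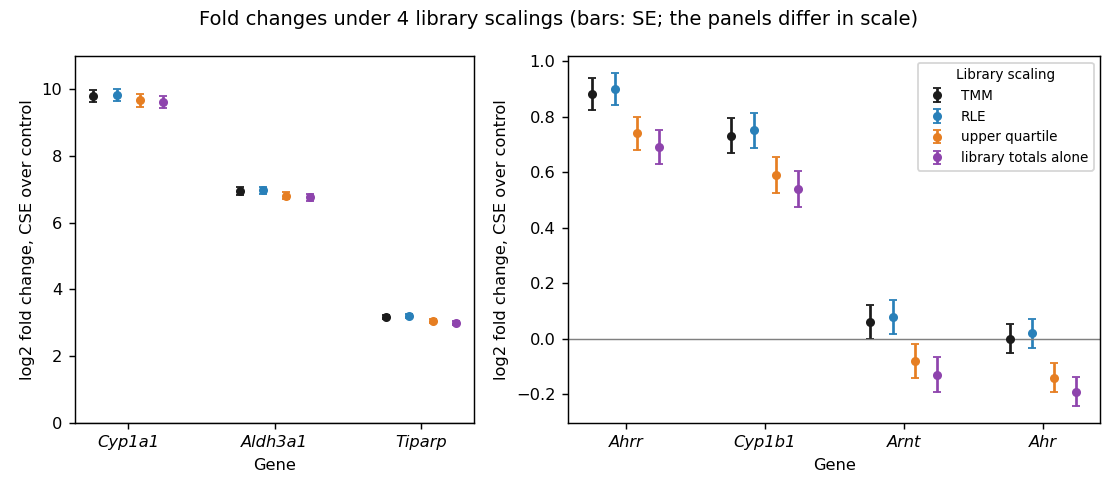
Log2 fold changes (CSE over control) under 4 library scalings, with bars for the SE and a different vertical scale in each panel. The 5 inducible genes stay above 0 under each scaling, while Arnt and Ahr lie at −0.13 and −0.19 when library totals alone are used.

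Ratios between genes within a library do not depend on how libraries are scaled. Since transcripts differ in length, only the change of a ratio between groups is read from them. The ratio of Ahrr to Ahr counts was 1.145, 1.18 and 1.12 in the CSE libraries and 0.609, 0.665 and 0.600 in the control libraries. The repressor gene thus gained on the receptor gene in every CSE library, by 0.88 on the log2 scale. The ratio of Arnt to Ahr was 0.618 ± 0.039 in the control and 0.645 ± 0.006 with CSE (SD, n = 3), and the groups overlapped. Cyp1b1 stood at 4.30 ± 0.388 times the Ahr counts with CSE and at 2.59 ± 0.162 times in the control (SD, n = 3). Ahrr gained a little on Cyp1b1, by 0.15 on the log2 scale. Their ratio was 0.242 ± 0.003 in the control and 0.268 ± 0.019 with CSE (SD, n = 3), with no overlap between the groups. The highest value, 0.290, was that of CSE library 3. Tiparp gained on Cyp1b1 by 2.46 on the log2 scale, with ratios of 0.961, 0.966 and 1.20 with CSE against 0.204, 0.187 and 0.178 in the control. In CSE library 3 Cyp1b1 was at its lowest CSE level and Tiparp at its highest. Aldh3a1 gained on Tiparp by 3.78 on the log2 scale. Of 8 ratios computed, 7 gave an exact 2-sided permutation p of 0.1, the smallest that 3 against 3 libraries allow (0.114 after Benjamini-Hochberg adjustment), and that of Arnt to Ahr gave an exact permutation p of 0.4.

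**Figure D3:**
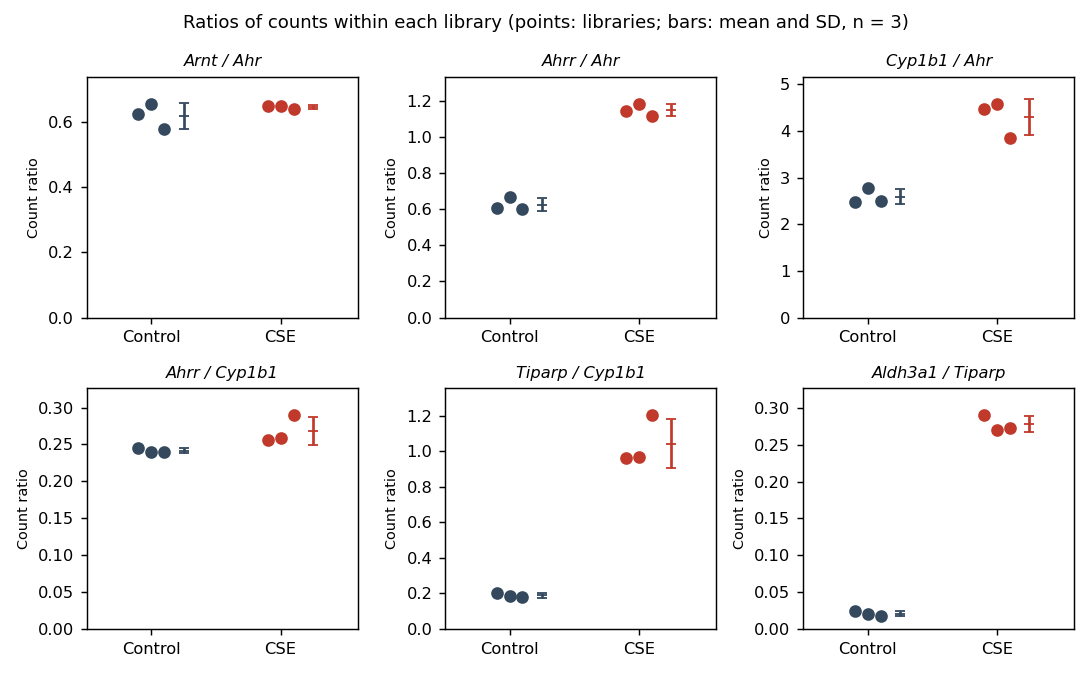
Ratios of counts between pairs of genes within each library, with points for libraries and bars for the mean and SD of 3 libraries per group, all axes starting at 0. The ratio of Arnt to Ahr overlaps between groups, the ratio of Ahrr to Ahr goes from 0.625 to 1.15, and that of Aldh3a1 to Tiparp goes from 0.0203 to 0.278.

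Genes with the most similar pattern were sought over the 6 libraries, as the smallest Euclidean distance between centred log2(CPM + 1) values among 9950 genes with a mean of at least 5 CPM. This distance is small for any gene with a change of like size on that scale between the same 2 groups. The added 1 compresses levels under 1 CPM, such as the control means of Cyp1a1 (0.0533 CPM) and Aldh3a1 (0.725 CPM). Genes with fitted log2 fold changes as unlike as 9.80 and 6.95 can therefore lie close together. Cyp1a1 and Aldh3a1 were each other's nearest gene, at a distance of 0.26. The heat-inducible HSP70 gene Hspa1b and the uncharacterised RGD1559493 followed for both, at 0.395 and 0.426 from Cyp1a1. Nearest to Tiparp were LOC102553452 at 0.229, the urokinase receptor gene Plaur at 0.290 and the metallothionein gene Mt2A at 0.292. Plaur went from 43.0 ± 2.06 CPM in the control to 381.0 ± 13.5 CPM with CSE (SD, n = 3). Nearest to Ahr were Zfp318, LOC100911798 and Atp11a, at 0.0298, 0.0378 and 0.0426.

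The other genes of the pathway were taken in lists by role. Over all tested genes the median was −0.02, with 36.3% called higher and 37.5% lower, and the medians and counts of each list are set beside these values. In the complex that holds the receptor in the cytosol and turns it over, chaperone genes were higher with CSE. Of 8 genes, 7 were tested, 4 were higher, 2 lower and 1 not called, with a median log2 fold change of 0.64. Cul4b was listed at 0 in all libraries. Hsp90aa1 and Hsp90ab1, which encode the cytosolic HSP90 proteins, rose by log2 fold changes of 2.47 ± 0.07 and 1.99 ± 0.04, and Ptges3, the gene of p23, by 1.01 ± 0.05. The levels of the HSP90 genes are uncertain where near-identical pseudogene copies took reads. Src, a kinase found with the complex, rose by 0.64 ± 0.05. Of the ubiquitin ligase genes, the adaptor gene Ddb1 was at −0.31 ± 0.04 and the chaperone-linked Stub1 at −0.24 ± 0.07, and both were called lower.

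The other bHLH-PAS factors, relatives that share partners with AHR and ARNT, moved in both directions. Of 11 listed, 9 were tested, 6 were higher and 3 lower, with a median of 0.63. The hypoxia factor gene Hif1a, whose protein also pairs with ARNT, went from 182.5 ± 9.95 to 281 ± 15.0 CPM (SD, n = 3). Its relative Epas1 fell by 0.98 on the log2 scale, and Arnt2, the second ARNT gene, fell from 13.7 ± 1.84 to 5.41 ± 1.07 CPM (SD, n = 3). The clock genes parted, with Arntl at 1.87 ± 0.06 and Npas2 at 1.56 ± 0.27, against Arntl2 at −2.83 ± 0.32. Sim1 had 35 counts with CSE and 3 in the control, a ratio of 11.1 with a 95% exact counting interval of 3.49 to 56.3. Sim2 was at 1.15 ± 0.46 and Clock at 0.25 ± 0.06, and neither was called under library totals alone or upper-quartile scaling.

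Coregulators, which join the receptor at its target genes or act on its partners, were mostly higher. Of 16 genes, 15 were tested, 10 were higher, 1 lower and 4 not called, with a median of 0.33, or 8 higher and 4 lower under library totals alone. The NF-κB gene Relb, whose protein can pair with AHR, rose by 1.14 ± 0.11, and Rela by 0.86 ± 0.06. The acetyltransferase gene Crebbp rose by 1.11 ± 0.07 and the corepressor gene Nrip1 by 0.98 ± 0.07.

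Further genes described as inducible through AHR did not move as one. Of 26 listed, 20 were tested, 11 were higher, 5 lower and 4 not called, with a median of 0.33, or 10 higher and 7 lower under library totals alone. The glutathione transferase gene Gsta2 had the highest fold among them, from 1.55 ± 0.188 to 50.9 ± 5.65 CPM (SD, n = 3), and Gsta1 rose by 2.71 ± 0.06, although reads of these similar genes may have been split between them. The EGF receptor ligand genes Areg and Ereg rose by 4.66 ± 0.21 and 4.08 ± 0.22. The quinone reductase gene Nqo1, a member of the classical receptor battery that also answers to NRF2, went from 719 ± 6.21 to 3751 ± 89.4 CPM (SD, n = 3). Ugt1a6, another battery member, had 2.41 ± 0.257 CPM in the control and 3.39 ± 0.247 CPM with CSE (SD, n = 3), and its call (0.49 ± 0.20, edgeR adjusted p = 0.0366) ended under library totals alone (edgeR adjusted p = 0.19) and upper-quartile scaling (edgeR adjusted p = 0.125). Lower genes included the P450 gene Cyp2s1 at −1.61 ± 0.25, Scin at −0.92 ± 0.25, the cell cycle inhibitor gene Cdkn1b at −0.86 ± 0.09 and the fatty acid carrier gene Fabp4 at −0.74 ± 0.07. The xanthine dehydrogenase gene Xdh stood at 28.2 ± 2.11 CPM in the control and 28.2 ± 0.153 with CSE (SD, n = 3). Ido1 and Lrat were listed at 0.

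Of 7 tested enzymes that serve the P450s, 3 were higher, 1 lower and 3 not called, or 3 higher and 3 lower under library totals alone. Their median of −0.06 was near the −0.02 over all tested genes, of which 36.3% were called higher and 37.5% lower. Alas1, the first enzyme of haem synthesis, rose from 15.2 ± 2.71 to 44.6 ± 3.19 CPM (SD, n = 3), a log2 fold change of 1.55 ± 0.10. Por, which passes electrons to the P450s, rose by 1.10 ± 0.06 and Cyb5a by 0.67 ± 0.06. The cytochrome b5 reductase gene Cyb5r3 was lower, at −0.66 ± 0.05. Ephx1, the microsomal epoxide hydrolase gene that acts on the epoxides formed by CYP1 enzymes, had 10.7 ± 0.131 CPM in the control and 10.1 ± 0.383 with CSE (SD, n = 3) and did not pass (edgeR adjusted p = 0.517).

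**Figure D4:**
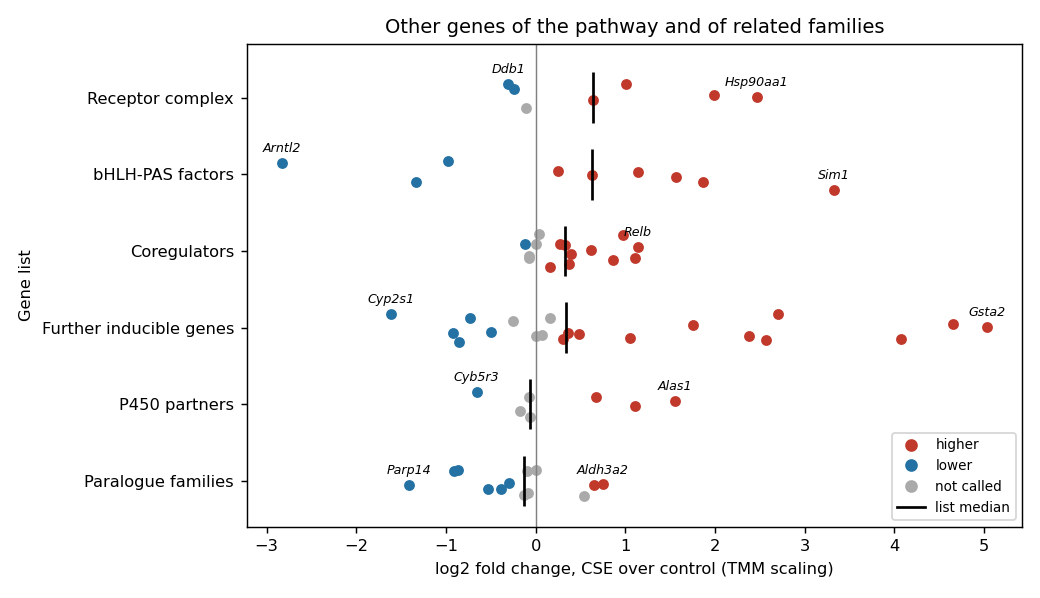
Log2 fold changes of CSE over control for the tested genes of 6 lists, with 1 point per gene coloured by its call and a black bar at each list's median. Points lie on both sides of 0 in every list, and Gsta2 at 5.04 and Arntl2 at −2.83 mark the ends.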

How the data were processed

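The authors deposited raw read counts per gene symbol, as whole numbers in 6 columns, 1 per library. The submitters' processing notes name the aligner HISAT2 2.0.4 and the rat build Rnor_6.0 without saying what each was used for. For the counting tool, strand setting and annotation nothing is given in the sources used here. Columns were assigned to CSE or control by their names, which match sample titles. With edgeR 4.0.16 in R 4.3.3, filterByExpr kept 13390 of 21252 genes with any count, TMM factors scaled library sizes, and a 2-sided quasi-likelihood F test compared the groups. SE is the size of the log2 fold change divided by the square root of F. For Cyp1a1 and Aldh3a1, with few control counts, it was smaller than with DESeq2 or limma-voom. Alternatives were other scalings, DESeq2 1.42.0, limma-voom (limma 3.58.1), other filters, a replicate block and leaving out each library. The chi-square per degree of freedom between libraries of a group was at least 3.24, so none agreed within sampling noise. The genes, lists and rules for named genes were chosen with earlier results of these data known. Up to 4 genes per list and direction were named by size of change, and others by role. RefSeq tables of GRCr8 served for promoters and neighbouring genes. The list gene Adgre1 was read under its older symbol Emr1, and Parp10 was not matched. Some listed genes count in the totals but are not reported here.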

Additional observations from a re-analysis of the deposited data

How the results depend on the processing

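Across 14 alternatives, between 9432 and 10684 genes were called, against 9894, and the 5 higher genes of the receptor system were 5 in each. Without any 1 library the count of called genes lay between 9544 and 9814, with 5 of the receptor system higher and 0 lower. Of the called genes 49.2% were higher, but only 37.2% under library totals alone. The number called lower was 0, but 1 under library totals alone and 1 under upper-quartile scaling, in both cases Ahr. Ahr changed sign to 0.02 under RLE scaling, 0.02 with DESeq2 and lay between −0.03 and 0.01 without any 1 library, changing sign to 0.01 without CSE replicate 1 or without CSE replicate 3, and Arnt to −0.13 under library totals alone and −0.08 under upper-quartile scaling. None of these changes of sign was called. Both scalings lower all genes by construction, by about the shift of the median. Log2 fold changes ranged over all alternatives from 3.00 to 3.23 for Tiparp, 6.76 to 7.09 for Aldh3a1, 0.69 to 0.91 for Ahrr and 0.54 to 0.81 for Cyp1b1. Same-numbered libraries did not deviate together (r = −0.0101, −0.0219 and −0.0298). That gave no sign of pairing, but with 3 libraries per group it cannot show that there was none. With the replicate number as a block, 9756 genes were called, with 5 genes of the receptor system higher and 0 lower. No library correlated best with its own number. Depth limits the control levels of Cyp1a1 and both levels of Cyp1a2.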

Other observations

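The genes next to the receptor system were also looked up, a choice made after its values were seen. For each of the 7 tested genes, the nearest tested protein-coding gene on either side in the RefSeq table of GRCr8 was taken. Of these 14 neighbours, 8 were higher with CSE, 0 were lower and 6 were not called, with a median log2 fold change of 0.50, beside 36.3% higher and a median of −0.02 over all tested genes. Under library totals alone 7 were higher and 4 lower, and under upper-quartile scaling 8 were higher and 4 lower. The 4 lower under both were Csk, Ssr3, Setdb1 and Ctsk. Next to Cyp1a1, the tyrosine kinase gene Csk had 78.4 ± 2.89 CPM in the control and 79.0 ± 3.32 with CSE (SD, n = 3), and the decapping gene Edc3 rose 1.93-fold. Beside Aldh3a1, its relative Aldh3a2, the fatty aldehyde dehydrogenase gene, rose 1.69-fold and the deubiquitinase gene Usp22 1.64-fold. Beside Ahrr, the calcium-binding protein gene Pdcd6 rose 1.72-fold and the exocyst gene Exoc3 1.41-fold, beside the 1.83-fold rise of Ahrr. Neither neighbour of Tiparp was called with TMM scaling, with Ssr3 at −0.01 ± 0.05 and Lekr1 at 0.51 ± 0.29. Rmdn2, which overlaps Cyp1b1 in GRCr8, rose by 0.56 ± 0.18, though not under library totals alone (0.37, edgeR adjusted p = 0.0649). Reads of overlapping genes cannot be told apart without a stated strand setting.

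Relatives of the target genes moved in both directions. Among 13 tested genes of other P450, ALDH3 and PARP family members, 2 were higher, 6 lower and 5 not called, with a median of −0.13, or 2 higher and 8 lower under library totals alone. Over all tested genes 36.3% were called higher and 37.5% lower, with a median of −0.02. Aldh3a2 and the PARP gene Parp16 (0.65 ± 0.11) were the 2 higher genes. Parp14, an interferon-linked relative of Tiparp, fell from 31.0 ± 2.41 to 11.7 ± 1.02 CPM (SD, n = 3). Parp2, a DNA repair gene, was at −0.92 ± 0.07 and Parp9 at −0.87 ± 0.11. Aldh3b1 was at −0.53 ± 0.21.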
